A study of Homo sapiens with 36 samples.

Results

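The subject is 52 genes listed as G1/S regulators or DNA replication factors, a list of named genes chosen by known function. It holds 15 origin licensing and helicase genes, and 16 polymerase, primase, clamp, loader, single-strand binding, flap, ligation and repair genes. The others are 4 genes of nucleotide supply, 5 genes of chromatin and histone mRNA, 2 checkpoint and degradation genes, 7 cyclins and kinases, and 3 E2F factors. The list was chosen with earlier results of these data known. All 52 were found once each among the 74628 genes of the count table, and all 52 passed the filter on low counts. The cells were Jurkat, a human T lymphocyte leukaemia line, carrying dCas9-VP64, a nuclease-dead Cas9 joined to a transcriptional activator, in 1 stable line marked mCherry+. Every group, the controls included, carried that protein, a lentiviral guide vector and a 3-day puromycin selection. The guides were sgRELA, a single guide aimed at RELA, or sgControl, given as non-targeting, and cells were harvested 5, 6 or 7 days after transduction. Every combination of guide and day (6 groups) had 3 biological replicates, from transductions done in triplicate, and each RNA was made into 2 libraries, whose counts were added. With 1 guide per arm, the effect of the guide and that of RELA cannot be told apart, and harvest day cannot be told apart from anything else that differed between harvests or their library preparation.

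Replication is prepared in G1, when ORC, CDC6 and CDT1 load the MCM2 to MCM7 ring onto origins, and geminin (GMNN) later blocks CDT1 so that no origin is licensed again. Cyclin D with CDK4 or CDK6, then cyclin E with CDK2, phosphorylate the RB family, which frees E2F factors to switch on many of the genes listed here. CDC45 and the GINS complex then turn the loaded ring into an active helicase, and primase, polymerases, the PCNA clamp, nucleotide synthesis and histone supply carry S phase through. RELA, the target of the guide, encodes the p65 subunit of NF-kB, a transcription factor of immune activation.

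The RNA sample totals ran from 18769530 to 29503934 counts, and the 6 day 6 samples (18769530 to 22147753) held fewer counts than most of the others. Mitochondrial genes took 8.33% to 9.87% of counts on day 6, 7.43% to 9.29% on day 5 and 7.41% to 7.85% on day 7. RELA rose with its guide, from 27.2 ± 2.77 CPM (counts scaled to depth, with TMM normalization) in sgControl to 209.5 ± 12.9 CPM in sgRELA when counts were summed over days (SD, n = 3 sums each, log2 fold change 2.95 ± 0.07 SE, edgeR adjusted p 9.39e-17, exact two-sided permutation p 0.1, the smallest that 3 against 3 allows). By day, RELA in sgRELA averaged 293.7, 201.1 and 127.2 CPM on days 5, 6 and 7, beside 33.3, 24.0 and 24.7 CPM in sgControl, log2 fold changes of 3.14, 3.07 and 2.36 (adjusted p 1.08e-15, 2.49e-15 and 7.89e-13). RELA in sgRELA fell from day 5 to day 7 (log2 -1.21, adjusted p 6.43e-08) and in sgControl too (-0.43, 0.0319), with an interaction of guide and day that was not called (0.686). All 10 T lymphocyte markers reached 1 CPM and summed to 3258 to 4203 CPM in each sample. Summed levels of the other marker lists were 16.7 to 62.8 CPM (B cell, 2 of 4 markers at 1 CPM), 0.395 to 4.08 (myeloid, 3 of 5), 1.95 to 10.3 (fibroblast, 1 of 3, COL1A2 at 0), 0 to 0.759 (erythroid, 0 of 3, HBB at 0) and 0 to 0.934 (epithelial, 0 of 3, EPCAM at 0). The B cell sum was mostly CD79A, at 16.4 to 26.2 CPM in the 9 sgControl samples and 48.2 to 62.6 CPM in the 9 sgRELA samples, without overlap, and its part in the comparison of guides was not tested. Positions are given on GRCh38, from the GENCODE v29 annotation.

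The most abundant member per kilobase of annotated exon was CDK6, the kinase partner of D cyclins, at 223 CPM per kb as a mean of the 18 samples. It stood at 180 CPM per kb on day 5, 207 on day 6 and 280 on day 7, and its range over samples did not overlap that of MCM3, the next member, at a mean of 79.8 CPM per kb. Below CDK6, no member's range over the 18 samples was clear of its neighbour in the order. CDCA7 (60.1 CPM per kb), MCM7 (59.0), MCM6 (46.7), RRM2 (46.3), UHRF1 (46.1) and PCNA (43.7) followed MCM3. At the low end stood the cyclins CCNE1 (2.01), CCNE2 (1.62) and CCND2 (0.723), whereas CCND3, the other D-type cyclin of the list, stood at 33.6 CPM per kb. Within the MCM2 to MCM7 ring, whose subunits are present in equal number in the protein, levels per kb spanned from MCM5 (18.3 CPM per kb on day 5) to MCM3 (73.1). That ratio was 3.99, and it was 3.98 on day 6 and 4.25 on day 7. It depends on the length used, all annotated exons together (7338 bases for MCM5, 3650 for MCM3), which need not be that of the expressed mRNA. Before division by length, MCM5 and MCM3 averaged 142 and 291 CPM over the 18 samples.

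**Figure D1:**
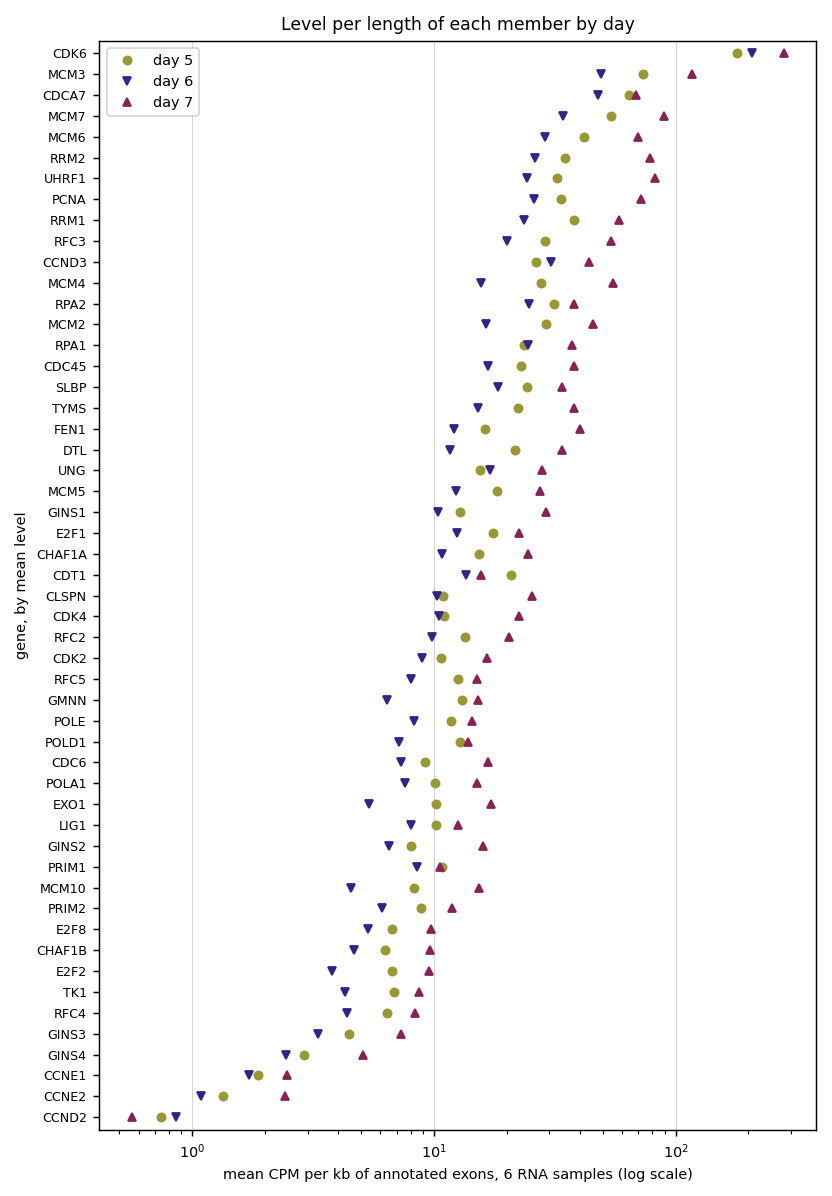
Mean level of each of the 52 members per kb of annotated exon (x axis, CPM per kb, log scale) on day 5, 6 and 7, each a mean of 6 RNA samples; genes are ordered by their mean over 18 samples. CDK6 lies apart at 180, 207 and 280 CPM per kb, and for most genes the day 6 triangle lies left of day 5 and the day 7 triangle to the right.

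The members' share of all counts was lower on day 6 than on day 5 and highest on day 7, in both guides. Members other than CDK6 took 0.378% to 0.423% of all counts in the 6 samples of day 5, 0.289% to 0.324% on day 6 and 0.607% to 0.649% on day 7, with no overlap between days. With CDK6 the ranges were 0.588% to 0.651%, 0.537% to 0.588% and 0.925% to 1.01%. In bulk RNA, fewer cells of a kind (here, fewer cells in S phase) and less RNA per cell cannot be told apart. The part of the lower totals and higher mitochondrial share of day 6 in these changes was not tested. With the rows of mitochondrial genes left out before normalization, the members' medians for day 6 against day 5 were log2 -0.47 in sgControl and -0.45 in sgRELA. That setting cannot answer the question, because the RNA samples and their depth stay as they were.

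From day 5 to day 6, 30 of 52 members fell and 0 rose in sgControl, and 27 fell and 1 rose in sgRELA (edgeR quasi-likelihood F test, Benjamini-Hochberg adjusted p under 0.05 over 27553 genes). With library set 1 only, 8 and 4 members were called, and 7 of 30 and 4 of 28 calls held in all 15 alternatives, 6 of which leave out 1 sample each. With both library sets, 5.58% of all genes tested fell and 3.29% rose in sgControl, and 4.34% fell and 2.57% rose in sgRELA. The shares with library set 1 only are not given here. Whether the drop in calls was particular to the members was not tested. The median log2 fold change of the members was -0.46 in sgControl and -0.45 in sgRELA, beside 0.04 and 0.03 over all genes tested. In sgControl 33 members had all 3 day 6 samples below all 3 day 5 samples, as did 11.5% of all genes, and in sgRELA 35 did, against 13.4%. The 22 members that fell in both guides were in all role groups except the cyclins and kinases, where 0 of 7 were called lower in either guide. For all genes tested, the share that fell in both guides was not computed.

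Day 7 exceeded day 5 for 37 members in each guide, with 1 lower in sgControl (CDT1) and 0 lower in sgRELA. Over all genes, 6.65% rose and 6.36% fell in sgControl, and 6.35% rose and 6.06% fell in sgRELA. Median log2 fold changes were 0.63 and 0.67, against -0.01 over all genes in each guide, and 35 members rose in both. The share of all genes that rose in both guides was not computed. From day 6 to day 7, 49 members rose in each guide and 0 fell, beside a background of 8.25% rising and 6.31% falling in sgControl and 7.21% rising and 5.02% falling in sgRELA, with medians of 1.10 and 1.11. These 3 contrasts share samples within a guide and are not independent of each other, whereas the guides share none. Both guides were harvested on days 5, 6 and 7 and were fitted with 1 estimate of the spread. An effect of a harvest or its library preparation may be common to both guides, so their agreement cannot tell it apart from an effect of day. Across the 52 members, the sign was the same in both guides for 50, 51 and 51 members (day 6 against 5, 7 against 5, 7 against 6), and Pearson's r across genes was 0.70, 0.87 and 0.89, a description over genes that are not independent replicates. Neither was computed over all genes tested, so whether this agreement is particular to the members was not tested.

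Mean levels were lowest on day 6 in both guides for 46 members and highest on day 7 in both for 49. How many of all genes tested had the same lowest or highest day was not counted, so these counts have no background. The full course, with a called fall to day 6, a called rise to day 7 and day 7 called above day 5, was met by 22 members in sgControl, 18 in sgRELA and 15 in both. Over all genes tested it was met by 0.987%, 0.766% and 0.537%.

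**Figure D2:**
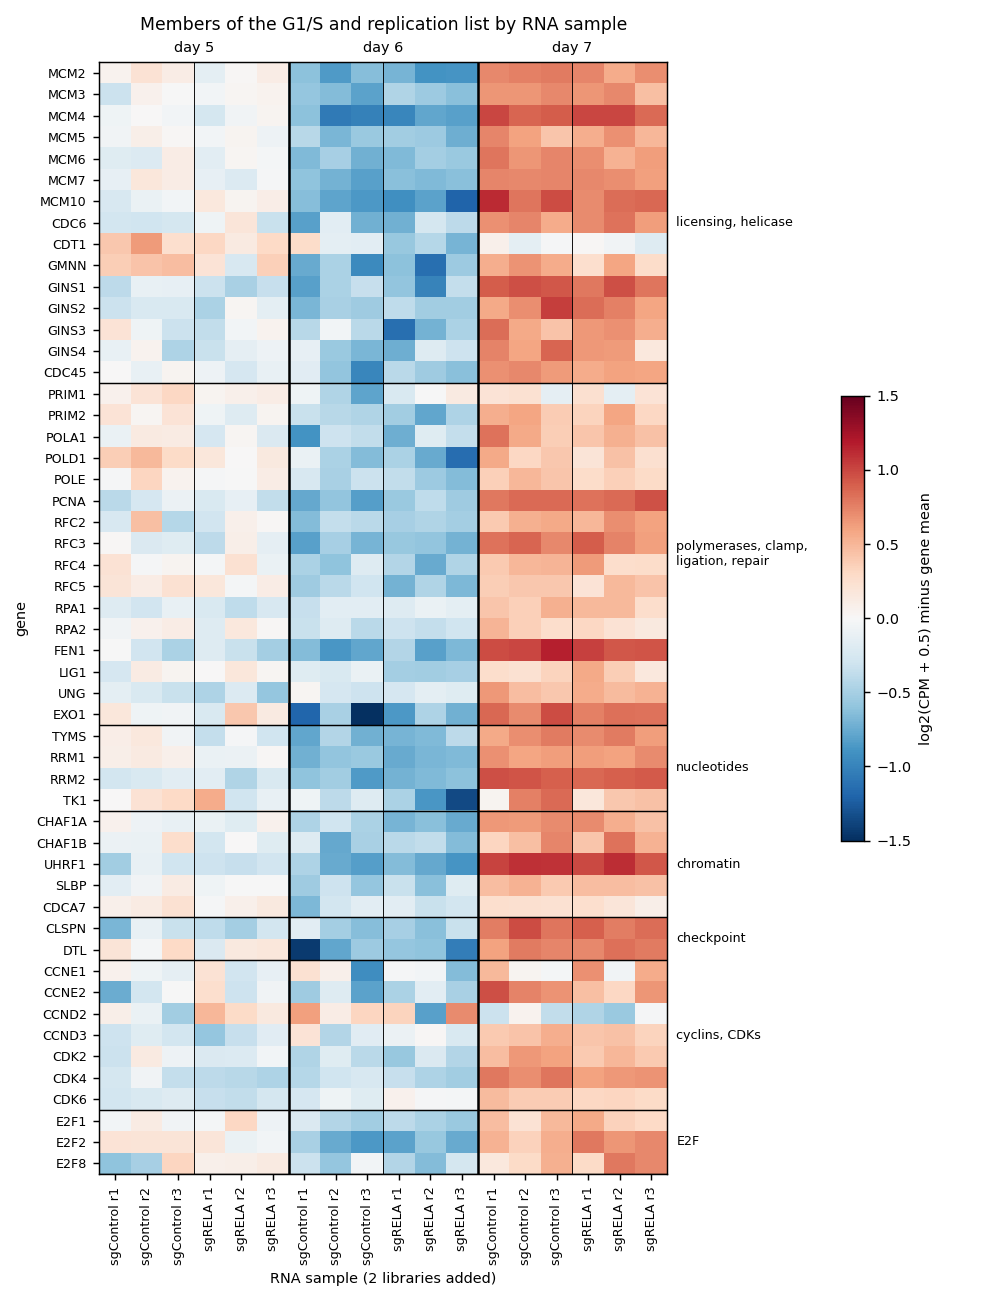
Colour map of the 52 members (rows, by role) in the 18 RNA samples (columns, by day and guide, r1 to r3 are replicates); colour is log2(CPM + 0.5) minus the gene's mean, with the scale limited to ±1.5. Day 6 columns are mostly blue and day 7 columns mostly red in both guides, and CDT1, CCND2 and PRIM1 stay pale or blue on day 7.

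Among the licensing and helicase genes, 10 of 15 fell by day 6 in each guide and 13 of 15 were above day 5 by day 7 in each. MCM2 to MCM7 fell by day 6 and rose above day 5 by day 7 in both guides without exception, with day 6 log2 fold changes from -0.86 (MCM4, sgControl) to -0.53 (MCM6, sgRELA). MCM10, which helps the helicase start, did likewise, as 24.6 to 28.9 CPM on day 6 in sgControl and 78.8 to 98.4 on day 7.

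MCM7 (chromosome 7, 100092728 to 100101940, minus strand), a subunit of the catalytic part of the ring, had the smallest p for the fall to day 6 in sgControl. In sgControl it measured 220.1, 271 and 258 CPM on day 5, 157, 147 and 136 CPM on day 6, and 398, 395 and 398 CPM on day 7. In sgRELA it measured 221, 207 and 237 CPM on day 5, 155, 151 and 155 CPM on day 6, and 396, 389.6 and 368 CPM on day 7. The 3 days did not overlap in either guide. From day 5 to day 6 it fell by 0.77 ± 0.08 on the log2 scale (SE, adjusted p 2.05e-07) in sgControl and by 0.53 ± 0.08 (adjusted p 6.52e-05) in sgRELA, and day 7 was above day 5 by 0.67 ± 0.08 (7.07e-07) and 0.79 ± 0.08 (4e-08).

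MCM4, another subunit of the ring, had its lowest values on day 6 too. Its sgControl samples read 191, 201 and 195 CPM on day 5, 130.1, 95.4 and 99.1 CPM on day 6, and 400.5, 367 and 375 CPM on day 7. Its sgRELA samples read 166, 193 and 206 CPM on day 5, 101, 117 and 114 CPM on day 6, and 401, 402 and 362 CPM on day 7. All 6 day 6 samples lay below all day 5 samples, and all 6 day 7 samples lay far above both. Day 7 exceeded day 6 by 1.82 ± 0.10 log2 units in sgControl (adjusted p 1.01e-13) and 1.81 ± 0.10 in sgRELA (7.93e-14), and day 5 by 0.96 ± 0.10 (3.83e-08) and 1.04 ± 0.10 (9.35e-09).

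MCM2, which also carries histones at the fork, gave the same course. Levels in sgControl were 141, 158 and 147 CPM on day 5, 88.5, 75.5 and 87.7 CPM on day 6, and 224, 230.0 and 234 CPM on day 7. Levels in sgRELA were 123, 138 and 147 CPM on day 5, 83.8, 72.8 and 73.6 CPM on day 6, and 226, 201 and 221 CPM on day 7. Days were separate in both guides. The fall to day 6 was 0.83 ± 0.09 log2 units in each guide (log2 fold changes -0.83 and -0.83, adjusted p 5.16e-07 and 4.98e-07), and 22.7% of its annotated exon bases are shared with a gene on the opposite strand, AC023593.1, which cannot be told apart from it if the counting ignored strand.

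MCM6, a further subunit of the ring, repeated it. The sgControl values were 158, 156 and 194 CPM on day 5, 113, 127 and 109 CPM on day 6, and 312, 285 and 298 CPM on day 7. The sgRELA values were 160.5, 183 and 176 CPM on day 5, 113, 126 and 122 CPM on day 6, and 291, 258 and 277 CPM on day 7. No day overlapped another in either guide, and day 7 was above day 5 by 0.82 ± 0.09 log2 units in sgControl (adjusted p 1.8e-07) and 0.67 ± 0.09 in sgRELA (4.79e-06).

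The GINS genes, whose 4 subunits join CDC45 and the MCM ring, were flat or lower on day 6 and high on day 7. GINS4 shares 21.2% of its exon bases with the opposite-strand gene AC009630.2. Of GINS1, GINS2, GINS3 and GINS4 only GINS3 in sgRELA fell by day 6 (log2 -0.65, adjusted p 0.0291, a call lost in 7 of 15 alternatives), while all 4 rose above day 5 in both guides, by 0.68 (GINS3) to 1.15 (GINS1) in sgControl and by 0.70 (GINS4, lost in 6 of 15 alternatives) to 1.25 (GINS1) in sgRELA. CDC6, the MCM loader, had log2 fold changes of -0.26 and -0.40 for day 6 without a call, and then 0.95 and 0.78 for day 7 against day 5 (adjusted p 3.23e-05 and 0.000405). CDC45 fell by day 6 in sgControl (-0.53, adjusted p 0.00915, lost in 4 of 15) and measured -0.38 in sgRELA (0.0864), and rose above day 5 in both (0.71 and 0.73).

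CDT1 and its inhibitor GMNN were not called above day 5 on day 7. CDT1 (chromosome 16, 88803213 to 88809258) loads MCM together with CDC6. In sgControl samples CDT1 stood at 72.0, 84.7 and 64.9 CPM on day 5, 65.7, 48.8 and 48.7 CPM on day 6, and 57.2, 48.8 and 53.6 CPM on day 7. In sgRELA samples CDT1 stood at 67.4, 59.7 and 66.7 CPM on day 5, 36.3, 40.3 and 33.2 CPM on day 6, and 54.7, 52.1 and 47.2 CPM on day 7. Day 5 was the highest day in both guides, and in sgControl 1 day 6 sample lay within the day 5 range. It fell by day 6 in both guides (log2 -0.44 ± 0.13, adjusted p 0.0304, and -0.82 ± 0.13, adjusted p 0.00012), and on day 7 it was still below day 5 in sgControl (-0.47 ± 0.13, adjusted p 0.014), with a log2 fold change of -0.33 ± 0.13 in sgRELA (adjusted p 0.105). Leaving out sgControl day 5 replicate 1 or 2, or day 6 replicate 2 or 3, ended its day 6 call in sgControl (adjusted p 0.0505, 0.168, 0.113 and 0.126), and leaving out day 5 replicate 2 or day 7 replicate 2 ended its day 7 call (0.11 and 0.0795). GMNN, geminin, had the deepest day 6 fall of the members in sgControl (log2 -1.16 ± 0.18, adjusted p 4.54e-05; -0.89 ± 0.18 in sgRELA, 0.00131), and its day 7 level differed from day 5 by 0.18 and 0.26, without a call (adjusted p 0.597 and 0.409).

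Of the 16 polymerase, clamp and repair genes, 11 fell by day 6 in sgControl and 8 in sgRELA, and 10 were above day 5 on day 7 in each guide. PCNA, the sliding clamp that holds polymerases on DNA, was among the 8 members with the smallest p on day 7. Its sgControl values were 43.8, 48.8 and 54.9 CPM on day 5, 34.1, 38.5 and 32.6 CPM on day 6, and 101, 105 and 105 CPM on day 7. Its sgRELA values were 49.7, 53.4 and 45.1 CPM on day 5, 39.5, 44.6 and 40.0 CPM on day 6, and 103, 105 and 113 CPM on day 7. Every day 7 sample lay at 101 CPM or higher, and the day 6 samples lay below those of day 5 in both guides. Day 7 was above day 5 by 1.08 ± 0.11 log2 units in sgControl (adjusted p 4.18e-08) and 1.11 ± 0.11 in sgRELA (2.52e-08), and the change to day 6 was called in sgControl (-0.49, adjusted p 0.00483, lost in 3 of 15 alternatives) and not in sgRELA (-0.26, 0.199).

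FEN1, the nuclease that trims the flaps of Okazaki fragments, was also among those 8. It read in sgControl 48.9, 40.3 and 35.2 CPM on day 5, 31.0, 26.5 and 28.5 CPM on day 6, and 97.6, 98.5 and 110.5 CPM on day 7. It read in sgRELA 42.9, 38.8 and 34.4 CPM on day 5, 36.1, 27.8 and 30.6 CPM on day 6, and 100.5, 94.1 and 95.01 CPM on day 7. In sgRELA the day 5 and day 6 samples overlapped, in sgControl they did not, and no day 7 sample came near either. Its day 7 rise over day 5 was 1.30 ± 0.13 log2 units in sgControl (adjusted p 2.16e-08) and 1.32 ± 0.13 in sgRELA (1.82e-08). EXO1, a nuclease of mismatch repair and end resection, had the widest span from day 6 to day 7 in sgControl (1.89 ± 0.19, adjusted p 9.57e-09), from 13.1 to 28.3 CPM up to 65.7 to 79.4 CPM.

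Of the replicative polymerases, POLE and POLD1 had small changes from day 5 to day 7, while POLA1 was nearer the members' medians (0.63 in sgControl, 0.67 in sgRELA). POLE, the leading-strand polymerase, was above day 5 by 0.30 and 0.28 log2 units (adjusted p 0.0279 and 0.0487), calls near the threshold that were lost in 5 and 11 of 15 alternatives, in sgRELA with the replicate block, without the count filter and on leaving out any 1 sample. In sgControl, leaving out day 5 replicate 1 or 3 or day 7 replicate 2 or 3 ended the POLE call. POLA1, of the primase complex, was above day 5 by 0.54 and 0.61 (0.0101 and 0.00418, the first lost in 3 of 15). POLD1, the lagging-strand polymerase, fell by day 6 (-0.79 ± 0.15, adjusted p 0.000603, and -0.88 ± 0.15, 0.000189) and measured 0.05 and 0.19 for day 7 against day 5, without a call (adjusted p 0.893 and 0.486). PRIM1, the catalytic primase subunit, measured -0.09 and 0.04 for day 7 against day 5 (0.83 and 0.947), while PRIM2, its partner, rose in sgRELA (0.49, 0.0101, lost in 4 of 15) with 0.36 in sgControl (0.0629). Of the clamp loader, RFC2 and RFC3 rose above day 5 in both guides (RFC3 by 0.93 and 0.90; the RFC2 calls were lost in 7 and 3 of 15 alternatives), and RFC4 and RFC5 had 0.22 to 0.40 with no call in either. LIG1, the ligase of Okazaki fragments, had 0.30 and 0.31 with no call (0.093 and 0.0827), and it fell by day 6 in sgRELA (-0.58, 0.00132) but measured -0.15 in sgControl (0.541).

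Of the same group, RPA1 and UNG were not called on day 6. RPA1, of the single-strand binding complex, had day 6 log2 fold changes of -0.03 and 0.14 (adjusted p 0.928 and 0.443) and UNG, the uracil glycosylase, 0.07 and 0.22 (0.848 and 0.358). Both then rose above day 5 in both guides, RPA1 by 0.63 and 0.70 and UNG by 0.75 and 0.94. RPA2, in the same complex as RPA1, measured -0.36 on day 6 in sgControl (0.0465) and -0.33 in sgRELA (0.076). The sgControl call was lost in 10 of 15 alternatives, among them the replicate block, no count filter, only the groups compared, and leaving out day 5 replicate 2 or 3 or day 6 replicate 1 or 3.

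**Figure D3:**
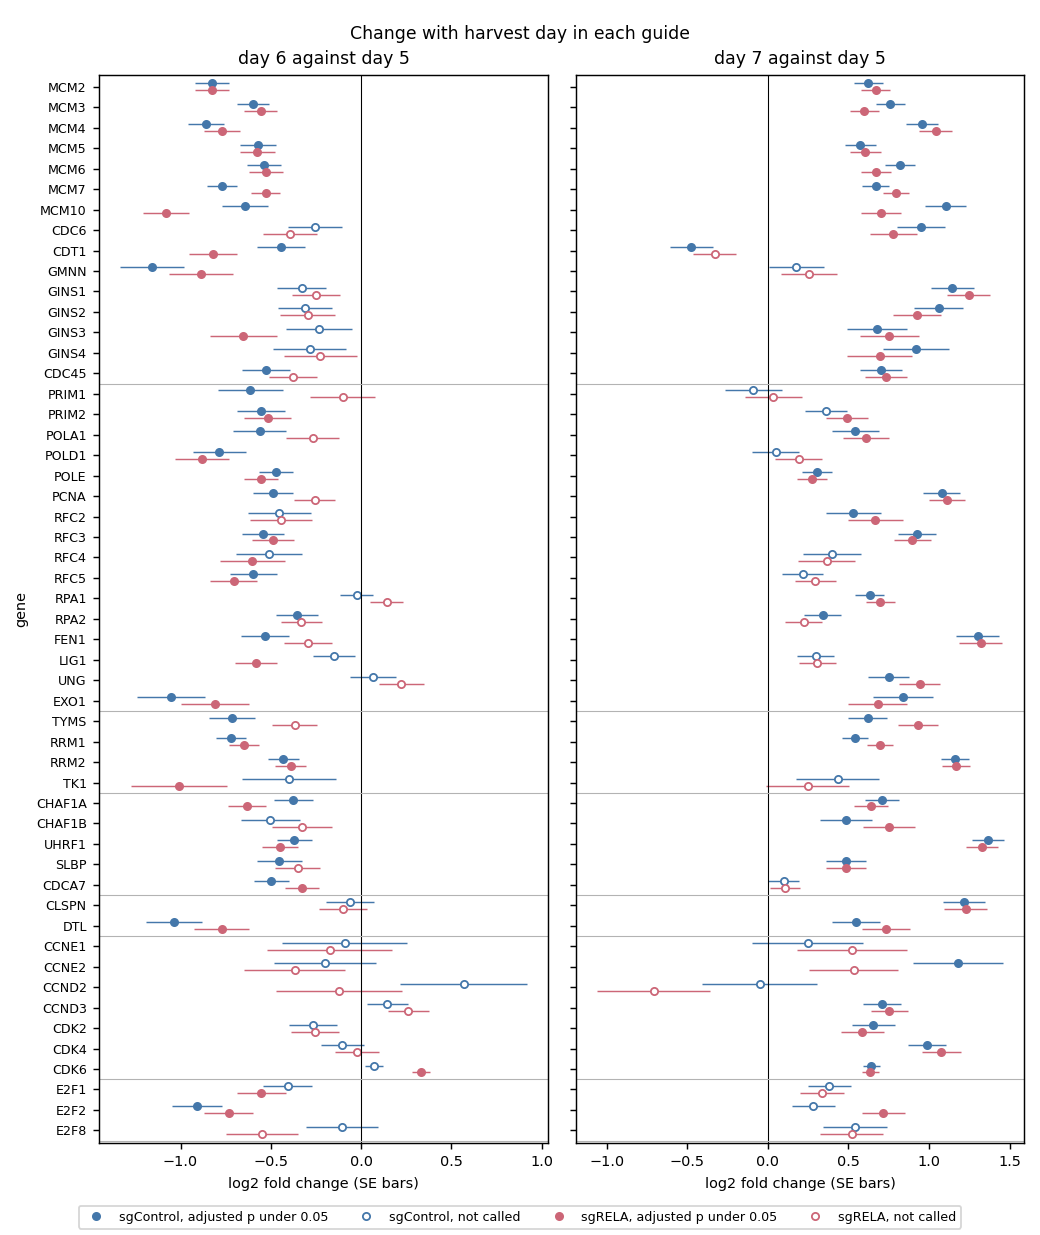
Log2 fold change of each member (rows, by role) for day 6 against day 5 (left) and day 7 against day 5 (right), with SE bars, in sgControl (blue) and sgRELA (red), n = 3 RNA samples per group; filled points have an adjusted p under 0.05. The left panel lies mostly below 0 (medians -0.46 and -0.45) and the right mostly above 0 (0.63 and 0.67), with CDT1 left of 0 in both panels.

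In nucleotide supply, 3 of 4 genes fell by day 6 and 3 of 4 were above day 5 by day 7 in each guide, but not the same 3 in sgRELA, where TK1 fell without rising above day 5 and TYMS rose without a called fall. RRM2 (chromosome 2, 10120698 to 10131419), the small subunit of ribonucleotide reductase and the one made in S phase, had the second smallest p for day 7 against day 5 in sgControl. In sgControl RRM2 reached 181, 187 and 197 CPM on day 5, 145, 153 and 122 CPM on day 6, and 431, 424 and 409 CPM on day 7. In sgRELA RRM2 reached 197, 161 and 188 CPM on day 5, 134, 139 and 143 CPM on day 6, and 400.5, 409.6 and 416 CPM on day 7. The days were separate in both guides, and every day 7 sample lay above 400 CPM. Day 7 was above day 5 by 1.16 ± 0.09 log2 units (adjusted p 5.59e-11) in sgControl and 1.17 ± 0.09 (4.6e-11) in sgRELA, after day 6 falls of 0.43 and 0.39 (log2 fold changes -0.43 and -0.39, adjusted p 0.00116 and 0.00355). Same-strand gene AC007240.1 covers 20.2% of its exon bases.

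RRM1, the large subunit, fell and rose in both guides. RRM1 in sgControl was at 165, 171 and 164 CPM on day 5, 94.5, 103 and 106 CPM on day 6, and 252, 235 and 242 CPM on day 7. RRM1 in sgRELA was at 146, 147 and 158 CPM on day 5, 91.9, 96.7 and 98.7 CPM on day 6, and 240.2, 236 and 254 CPM on day 7. The 3 days were separate in both guides. The change to day 6 was -0.72 ± 0.08 (adjusted p 4.43e-07) and -0.65 ± 0.08 (2.26e-06), and day 7 exceeded day 5 by 0.54 ± 0.08 and 0.70 ± 0.08 (1.29e-05 and 2.28e-07). TYMS, which makes thymidylate, fell by day 6 in sgControl (-0.71 ± 0.12, adjusted p 0.000264), measured -0.37 in sgRELA (0.0732) and rose above day 5 by 0.62 and 0.93 (adjusted p 0.000656 and 2.76e-06), with 39.1% of its exon bases shared with the opposite-strand gene ENOSF1. TK1, thymidine kinase, was low and noisy (4.18 to 21.1 CPM), with -0.40 on day 6 in sgControl (0.425), -1.01 in sgRELA (0.016, a call lost in 4 of 15 alternatives), and 0.43 and 0.25 for day 7 against day 5 and no call (0.32 and 0.645).

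In the chromatin group, 4 of 5 genes rose above day 5 by day 7 in each guide, and CDCA7 did not (0.10 and 0.11, adjusted p 0.599 and 0.574) although it fell by day 6 in both (-0.50 and -0.33, the second lost in 5 of 15 alternatives). UHRF1 (chromosome 19, 4903080 to 4962154), which recruits DNA methyltransferase to newly copied DNA, had the largest day 7 rise over day 5 of the 52 members in each guide. Across sgControl, UHRF1 was at 143, 189 and 166 CPM on day 5, 149, 122 and 116 CPM on day 6, and 414, 438 and 434 CPM on day 7. Across sgRELA, UHRF1 was at 165, 161 and 169 CPM on day 5, 131, 120.3 and 111 CPM on day 6, and 408, 444 and 391 CPM on day 7. Day 5 and day 6 overlapped in sgControl through day 6 replicate 1, and not in sgRELA, and no day 7 sample came near them. Day 7 was above day 5 by 1.37 ± 0.10 log2 units (adjusted p 3e-11) in sgControl and 1.33 ± 0.10 (4.6e-11) in sgRELA. CHAF1A, the large subunit of the chromatin assembly factor CAF-1, rose by 0.71 and 0.64, its partner CHAF1B by 0.49 (lost in 6 of 15 alternatives) and 0.75, and SLBP, which binds histone mRNA, by 0.49 and 0.48.

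CLSPN, claspin, an adaptor of the replication checkpoint, rose by day 7 and was not called on day 6. Its values in sgControl ran 47.3, 70.9 and 60.3 CPM on day 5, 68.6, 53.3 and 49.0 CPM on day 6, and 130.1, 151 and 134 CPM on day 7. Its values in sgRELA ran 58.7, 53.5 and 62.9 CPM on day 5, 53.9, 49.1 and 60.6 CPM on day 6, and 143, 131 and 137 CPM on day 7. Days 5 and 6 overlapped in both guides, and every day 7 sample lay above all of them. The rise over day 5 was 1.22 ± 0.13 log2 units in sgControl (adjusted p 8.58e-08) and 1.23 ± 0.13 in sgRELA (7.81e-08), after day 6 changes of -0.06 and -0.10 (0.866 and 0.782). DTL, the ubiquitin ligase adaptor that marks CDT1 for destruction on PCNA, fell steeply by day 6 (-1.04 ± 0.15, adjusted p 2.69e-05, and -0.77 ± 0.15, 0.00114) and rose above day 5 by 0.55 and 0.74 (0.0124 and 0.000949, the first lost in 3 of 15 alternatives).

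**Figure D4:**
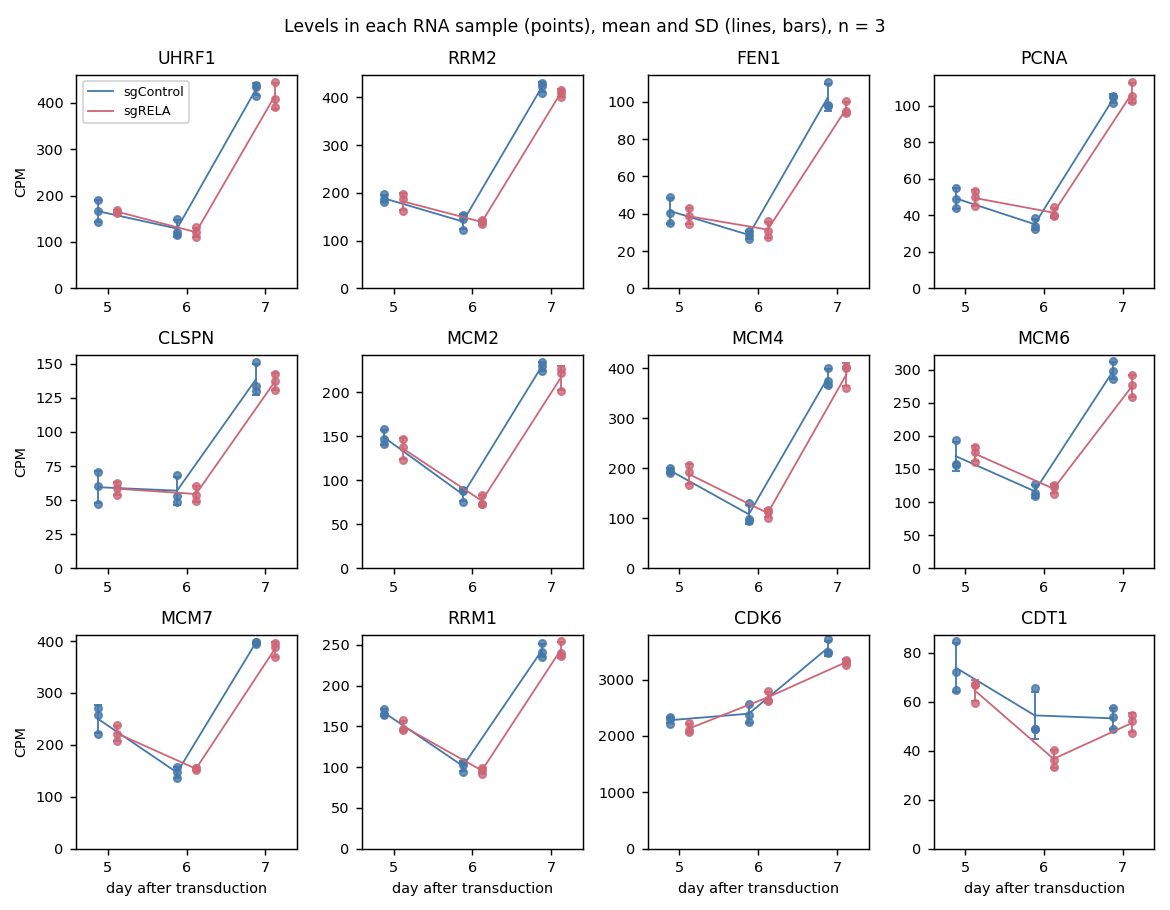
CPM (y axis, from 0) by day after transduction for 12 members; points are RNA samples, lines join group means and bars are SD, n = 3, sgControl in blue and sgRELA in red. UHRF1 and RRM2 lie at 391 CPM or more in every day 7 sample, CDK6 climbs without a dip, and CDT1 is highest on day 5.

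Of the cyclins and kinases, 0 of 7 were called lower on day 6 in each guide, although the means of CCNE1, CCNE2, CDK2 and CDK4 were lowest on that day in both (CDK2 -0.27 and -0.25, adjusted p 0.251 and 0.313), and 5 in sgControl and 4 in sgRELA were above day 5 by day 7. CDK6 (chromosome 7, 92604921 to 92836594, minus strand) was the sole member called higher on day 6, in sgRELA. Its sgControl samples stood at 2217, 2293 and 2332 CPM on day 5, 2255, 2567 and 2367 CPM on day 6, and 3715, 3485 and 3482 CPM on day 7. Its sgRELA samples stood at 2101, 2070 and 2224 CPM on day 5, 2794, 2639 and 2625 CPM on day 6, and 3321, 3357 and 3269 CPM on day 7. In sgRELA each day lay above the one before without overlap, and in sgControl the day 5 and day 6 samples overlapped while all day 7 samples lay higher. The change to day 6 was 0.33 ± 0.05 log2 units in sgRELA (adjusted p 4.39e-05) and 0.07 ± 0.05 in sgControl (0.476), and day 7 was above day 5 by 0.64 ± 0.05 in each (1.86e-10 and 2.14e-10). The difference between guides in its time course had the smallest interaction p of the members (0.000794 unadjusted), and it did not pass the adjustment (edgeR adjusted p 0.905).

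CDK4, the other partner of D cyclins, rose by 0.99 and 1.08 log2 units over day 5 (adjusted p 5.16e-07 and 1.27e-07), with 43.2% of its exon bases shared with the opposite-strand gene TSPAN31. CDK2, the partner of cyclin E, rose by 0.66 and 0.59 (0.000778 and 0.00252), and CCND3, cyclin D3, by 0.71 and 0.75 (5.48e-05 and 2.33e-05). CCNE2 rose in sgControl (1.181 ± 0.278, 0.00361) with 0.53 ± 0.28 in sgRELA (0.241), and 37.0% of its exon bases lie on the opposite-strand gene INTS8. CCNE1 and CCND2 were called in no contrast, at 53 to 210 and 58 to 178 counts per sample, with wide errors (CCND2 in sgRELA had a log2 fold change of -0.71 ± 0.35 for day 7 against day 5, adjusted p 0.221).

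All 3 E2F genes rose from day 6 to day 7 in both guides, by 0.64 (E2F8, lost in 5 of 15 alternatives) to 1.19 (E2F2) in sgControl and by 0.89 (E2F1) to 1.45 (E2F2) in sgRELA. Against day 5, E2F2 on day 7 measured 0.28 in sgControl (adjusted p 0.186) and rose by 0.72 in sgRELA (0.000353). E2F1 had 0.38 and 0.34 (0.0598 and 0.107), and E2F8, a repressor of the family, 0.54 and 0.52 (0.0721 and 0.0822).

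RefSeq promoter windows of 250 bases before the start and 50 after (GRCh38.p14) matched 44 members, and were read because most of these genes rose from day 6 to day 7 and E2F is their textbook regulator. An E2F-like word, TTTCGCGC, TTTGGCGC, TTTCCCGC or TTTGCCGC on either strand, stood in 22 of 44 windows (50%), against 3.3% of 27305 windows in the table. CCAAT, the word bound by NF-Y, stood in 22 of 44 (50%, against 35.7%), and TTTGAA or TTCGAA, like the CHR element of G2 and M phase genes, in 2 of 44 (4.5%, against 16.6%), on either strand. A match is a description of the letters, and no binding was measured. The members were chosen by function, so a high share of E2F-like words could be met whatever their course over days. The windows of the table were not matched to the members for gene type or base composition. A link between these words and the day 7 rise was not tested. The members with the smallest p for day 7 against day 5 follow, 5′ to 3′ on the gene strand, as the stretches that lie before the RefSeq start and in no UTR of GENCODE v29. Capitals mark CCAAT or an E2F-like word, and the short UHRF1 stretch holds TTTCCCGC on the other strand, 14 bases before the start. RRM2 held 3 CCAAT words and no E2F-like word in its window; the AT that opens its stretch ends the first of them. The second UHRF1 stretch and the RRM2 stretch are coding in longer transcripts, and the CDK6 stretch held neither word.
UHRF1, chr19:4909251-4909429, plus strand: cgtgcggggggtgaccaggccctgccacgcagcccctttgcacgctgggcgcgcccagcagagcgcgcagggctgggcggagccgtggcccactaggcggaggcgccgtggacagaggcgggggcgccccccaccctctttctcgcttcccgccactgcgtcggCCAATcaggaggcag
UHRF1, chr19:4909474-4909497, plus strand: atgccgagttttcGCGGGAAAaaa
RRM2, chr2:10122619-10122729, plus strand: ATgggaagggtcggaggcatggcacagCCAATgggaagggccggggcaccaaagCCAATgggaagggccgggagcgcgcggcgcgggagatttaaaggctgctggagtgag
CDK6, chr7:92836595-92836823, minus strand: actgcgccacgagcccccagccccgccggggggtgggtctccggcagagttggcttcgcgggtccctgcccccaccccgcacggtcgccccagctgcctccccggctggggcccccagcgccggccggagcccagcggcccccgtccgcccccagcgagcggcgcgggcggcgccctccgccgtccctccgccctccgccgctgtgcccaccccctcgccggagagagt

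Part of the G1/S and replication genes outside the list changed in the same directions. These genes, and the G2 and M phase genes below, were also chosen with earlier results of these data known, so they are not independent support. Of 72 other G1/S and replication genes, 70 were tested, and 31 fell and 2 rose by day 6 in sgControl (median log2 -0.40) and 22 fell and 1 rose in sgRELA (-0.30), beside 5.58% and 4.34% of all genes falling. By day 7, 35 were above day 5 and 3 below in sgControl (median 0.37), and 33 above and 1 below in sgRELA (0.43), beside 6.65% and 6.35% of all genes rising. TFDP1, the dimer partner of E2F, rose by 1.21 and 1.04 over day 5, POLA2 of the primase complex by 1.16 and 1.08, SKP2, which marks p27 for destruction, by 0.94 and 0.88, and MYBL2 by 0.86 and 1.14, all called in both guides. The 3 lower genes in sgControl were CDKN1B, which encodes the CDK inhibitor p27 (-0.79 and -0.78, adjusted p 4.71e-06 and 5.85e-06), POLD4 (-0.72, 0.0281; -0.52 in sgRELA, 0.136) and RBL2, a member of the RB family (-0.31, 0.0443; -0.28 in sgRELA, 0.0723).

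Genes of G2 and M phase, a list of 20 used for comparison, were mostly called lower on day 6, and some of them above day 5 on day 7. By day 6, 19 fell in sgControl and 18 in sgRELA (medians -0.78 and -0.69), and by day 7, 12 and 16 were above day 5 (medians 0.45 and 0.56), leaving 8 and 4 without a call; the shares of all genes are those just given. KIF11, a spindle motor, measured -0.75 and 0.76 in sgControl for day 6 and day 7 against day 5, and BUB1, of the spindle checkpoint, -0.79 and 0.65. AURKB and BIRC5, of the chromosomal passenger complex, rose by 0.79 and 0.68 over day 5 in sgControl and by 0.77 and 0.97 in sgRELA. The medians are set beside those of the members as values, and the difference between the lists was not tested.

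Between the guides, edgeR called no member. On day 5, day 6 and day 7 edgeR called 0, 0 and 0 of 52 members, beside 0.138%, 0.214% and 0.0907% of all genes. At an unadjusted p under 0.05 the edgeR counts were 2, 9 and 0 (against 5.96%, 6.07% and 4.68% of all genes). DESeq2 called 0, 1 and 0 members, and its shares of all genes are not given here. Summed over days, edgeR and DESeq2 each called 0 (0.363% of all genes in edgeR), with 5 at an unadjusted p under 0.05 in edgeR (6.74% of all genes). The interaction of guide and day called 0 in both tools (0.00363% of all genes in edgeR), with 4 at an unadjusted p under 0.05 (4.69% of all genes), MCM10, CDT1, LIG1 and CDK6. The median log2 fold change over days was -0.05, with 37 of 52 members below 0. The 95% interval of the fold change lay within ±0.5 log2 units for 50 of 52 members and within ±1 for all 52, so changes as large as that of RELA were outside the interval of every member. In 11 members all 3 sgRELA sums lay below all 3 sgControl sums, as they did for 5.94% of all genes, and the reverse held for 0 members (6.34% of all genes).

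POLD1 had the smallest p over days. Its 3 sgControl sums were 66.1, 59.0 and 56.4 CPM and its 3 sgRELA sums were 52.8, 52.6 and 50.5 CPM. All sgRELA sums lay below all sgControl sums, with means of 60.5 ± 5.00 and 51.96 ± 1.28 CPM (SD, n = 3), a log2 fold change of -0.22 ± 0.07 and an adjusted p of 0.377. By day, POLD1 in sgControl was at 68.5, 74.0 and 64.6 CPM on day 5, 49.2, 37.8 and 33.3 CPM on day 6, and 78.4, 65.9 and 70.1 CPM on day 7. By day, POLD1 in sgRELA was at 59.3, 52.9 and 58.4 CPM on day 5, 37.9, 31.0 and 23.6 CPM on day 6, and 60.3, 72.0 and 62.5 CPM on day 7. The guides did not overlap on day 5 and did on days 6 and 7.

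CDT1 came next over days, at 60.1 ± 4.56 CPM in sgControl and 51.8 ± 1.16 in sgRELA (log2 -0.21 ± 0.07, adjusted p 0.392). It was also the member nearest to a call on 1 day: on day 6 the 3 sgRELA samples (33.2 to 40.3 CPM) lay below the 3 sgControl samples (48.7 to 65.7 CPM), a log2 fold change of -0.57 ± 0.13 with an adjusted p of 0.0708 in edgeR and 0.00614 in DESeq2. It passed in edgeR without the filter on low counts (0.0108) and without sgControl day 6 replicate 2 (0.0466), and over the other alternatives its adjusted p ranged up to 0.806. Without the 2 libraries with few detected genes, which include library 1 of sgControl day 6 replicate 1, the log2 fold change was -0.32 (adjusted p 0.538), and without sgControl day 6 replicate 1 it was -0.41 (0.445).

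**Figure D5:**
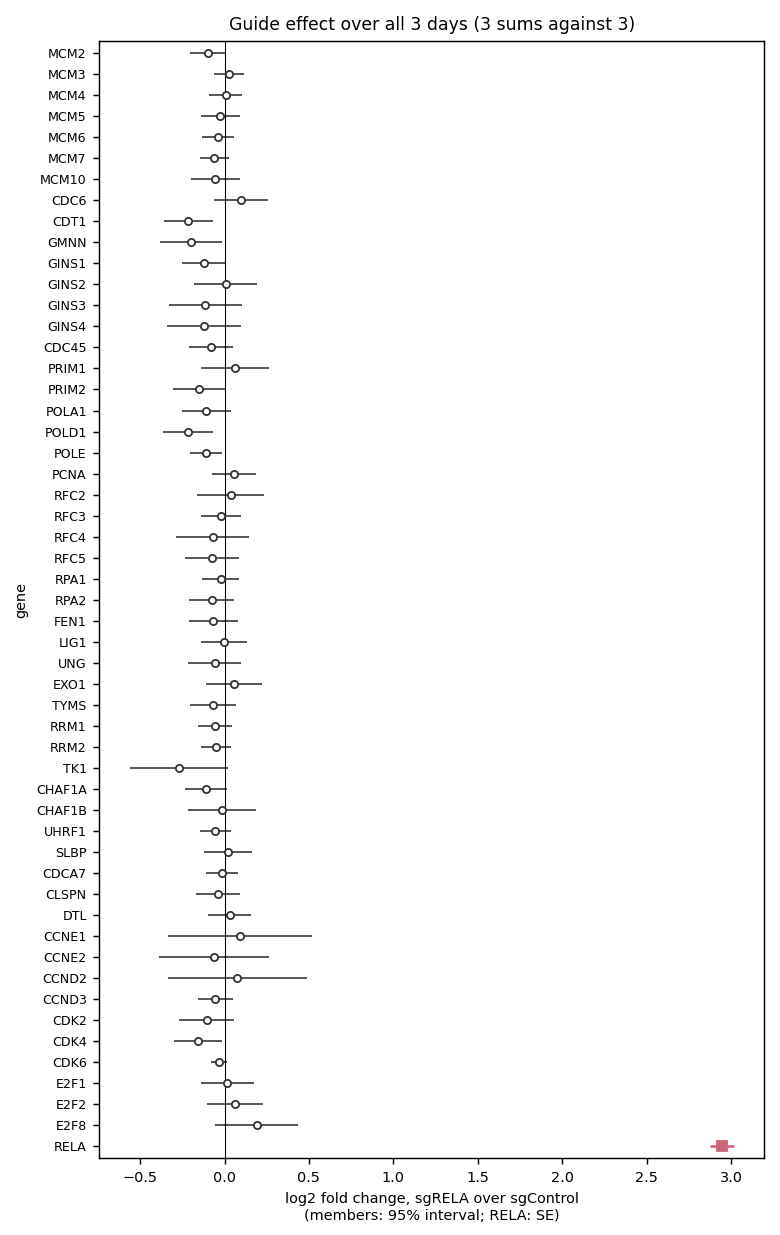
Log2 fold change of sgRELA over sgControl for each member (rows) with its 95% interval, from 3 sums over days against 3, and RELA itself at the bottom with its SE. All members lie between -0.27 and 0.19, while RELA lies at 2.95.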

How the data were processed

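The authors' deposited values are raw gene-level counts, not normalized per the labels, for 36 libraries made from 18 RNA samples. RamDA-seq libraries were made from 100 pg of total RNA each. The submitters' processing notes name cutadapt 1.18, STAR 2.7.9a and GRCh38; the counting tool, annotation and strand setting are not given in the sources used here. Of the members, 22 share exon bases with a gene on the opposite strand and 6 with a gene on the same strand. A named pseudogene exists for 11, and the counts of all these members are uncertain to that extent. Library totals ran from 7586205 to 16124473 counts. No molecular identifiers are mentioned.

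Symbols came from a gene name table that matched 57693 of 74628 identifiers. The paired libraries of each RNA were summed. edgeR 4.0.16 in R 4.3.3 (TMM, filterByExpr with minimum count 10, quasi-likelihood F test, Benjamini-Hochberg over all genes tested, called at adjusted p under 0.05) was fitted to 18 samples in 6 groups, and, for the guides over all days, to 3 sums against 3 (28888 genes tested). RELA was also compared by an exact permutation test on log2(CPM + 1). Standard errors come from the F statistic. The script was tested on simulated counts. The 52 members and all gene lists were chosen with earlier results of these data known. Values in every sample are given for the 8 members with the smallest p for day 7 against day 5, and the 4 for each other day contrast, in sgControl among those called in both guides, and for the 2 with the smallest p between guides over days; CDT1 and CDK6 are also named for their departures, chosen after their values were seen. Alternatives were DESeq2 1.42.0, its size factors, no count filter, each library set, no mitochondrial genes, no libraries with few detected genes, a replicate block, only the groups compared, the average guide contrast and leaving out each replicate.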

Additional observations from a re-analysis of the deposited data

Results flagged for a closer look

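One library stood apart among the 6 of its group: library 1 of sgControl day 6 replicate 1, where members other than CDK6 took 0.3475% of counts, beside 0.2912% to 0.3089% in the other 5 libraries. Its gap to the next library was 0.686 of the range, above the critical value of 0.625 for 6 libraries. The next highest, at 0.3089%, was library 2 of the same RNA. It was the 1 flag in 12 searches, which covered 2 overlapping measures in 6 groups. For independent values chance flags about 1 in 20 groups. The 6 libraries of a group are 2 from each of 3 RNA samples, so that rate and the critical value hold only roughly. The flagged library, library 1, is also 1 of the 2 with few detected genes. Without those 2 libraries, 30 members fell by day 6 in sgControl, but not the same 30, as PRIM1 and RPA2 lost their call. CDT1 on day 6 then differed between guides by -0.32 on the log2 scale in place of -0.57.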

How the results depend on the processing

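No called member changed sign under any alternative. With library set 1 only, calls dropped to 8 (day 6 against day 5, sgControl), 4 (sgRELA; MCM2, MCM4, MCM10 and RRM1), 24 (day 7 against day 5, sgControl) and 24 (sgRELA). With library set 2 only, and with only the groups compared, day 6 against day 5 in sgControl gave 20 calls, from 30. Shares of all genes called under these settings are not given here, so whether the drops are particular to the members was not tested. Between guides on day 6, DESeq2, no filter on low counts, and the fit without sgControl day 6 replicate 2 each called 1 member, CDT1. Leaving out 1 sample at a time gave 24 to 29 calls (day 6 against day 5, sgControl), 22 to 27 (sgRELA), 33 to 35 (day 7 against day 5, sgControl), 33 to 37 (sgRELA), 46 to 49 (day 7 against day 6, sgControl), 47 to 49 (sgRELA), 0 between guides on days 5 and 7 and over days, 0 to 1 on day 6 and 0 for the interaction; RELA ran from 2.87 to 3.01. Members whose call held in every alternative, leaving out samples included, numbered 7 of 30, 4 of 28, 22 of 38, 22 of 37, 39 of 49 and 38 of 49, in the same order. With the replicate block, calls were 30, 28, 38, 37, 48 and 48 and 0 between guides, and RELA was 2.95; same-numbered samples did not deviate together (1 of 27 pairs had a correlation over 0.1, range -0.249 to 0.123), and in 7 of 27 comparisons a sample correlated best with its own number. With the replicate block, RPA2 lost its day 6 call in sgControl and RFC4 in sgRELA, so equal counts did not mean the same members. The members' median between guides over days moved from -0.05 to -0.09 without the libraries with few detected genes. CDT1, CDK6 and the members named by a rule, each in the contrast that named it, were also checked in library set 1. Called with both library sets, MCM7 (day 6, sgRELA, -0.53), CDK6 (day 6, sgRELA, 0.32) and CDT1 (day 6, -0.14 and -0.64, and day 7, sgControl, -0.42) were not called there. Many other calls were lost there too, among them those of RRM2, MCM5, MCM6, POLE and UHRF1 on day 6 in both guides. CDT1 on day 6 in sgControl was not called with only the groups compared (-0.44), and on day 7 in sgRELA it was (-0.33). Causes were not tested. Counts per sample were low for CCNE1, CCNE2, CCND2 and TK1, at 53 to 535; how much of their error is counting error was not separated from the spread between replicates.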
